A study of Rattus norvegicus with 6 samples.

Results

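The Wnt signalling genes of cultured rat hippocampal neurons were followed across overexpression and knockdown of cyclin Y (CCNY). They were chosen by symbol, with earlier results of these data known. The set held every gene in the expression table whose symbol began with Wnt, Fzd, Dvl, Dkk or Sfrp and a number. A fixed list of receptors, cytoplasmic components and nuclear factors was added, which gave 54 of 17066 genes. Primary neurons were prepared from rat embryos at embryonic day 18, infected at 5 to 6 days in vitro (DIV) and harvested at DIV 14 for RNA-seq. Lentivirus carried EGFP alone in the control group, CCNY-WT-EGFP for overexpression in the CCNY-WT group, or CCNY-shRNA-EGFP for knockdown in the CCNY-shRNA group. Each of the 3 groups had 2 libraries, and all 3 carried a lentivirus with EGFP. The labels do not say that the 2 libraries of a group came from separate cultures, so the p-values measure only the spread between these libraries. Neither the share of infected cells nor a control hairpin was given, so an effect of carrying any hairpin cannot be told apart from that of CCNY knockdown.

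Wnt proteins are lipid-modified secreted ligands that bind Frizzled (Fzd) receptors together with the co-receptors Lrp5 and Lrp6. In the canonical branch, this keeps a complex of Axin, Apc, Gsk3 and casein kinase from marking β-catenin for destruction, and β-catenin then acts with TCF/LEF factors on target genes. Other branches run through Ror and Ryk receptors, small GTPases and calcium, and in hippocampal neurons Wnt ligands are known for roles in dendrite growth and synapse formation. Cyclin Y enters this pathway at the membrane, where with its kinase Cdk14 it phosphorylates Lrp6.

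The values are FPKM, the number of fragments scaled by transcript length and library size, so that levels can be compared between genes. Between 9955 and 10002 genes reached an FPKM of 1 in each library. The relative depth of the libraries, read from the steps of weakly expressed genes, ran from 0.818 in CCNY-shRNA replicate 1 to 1.33 in CCNY-WT replicate 1, with EGFP replicate 1 set to 1. The targeted gene Ccny stood at 43.1 and 42.3 FPKM with EGFP, 108 and 109 with CCNY-WT and 5.98 and 6.19 with CCNY-shRNA, in the direction of every label. Its difference from EGFP on the log2 scale was 1.35 ± 0.0658 (SE) in CCNY-WT (limma adjusted p = 4.61e-04) and -2.81 ± 0.0658 in CCNY-shRNA (limma adjusted p = 1.57e-06). The CCNY-WT values may include fragments of the lentiviral copy.

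Of the 54 Wnt genes, 30 reached an FPKM of 1 in at least 2 libraries and were tested with limma among 10188 genes. None of the 30 passed the adjusted threshold of 0.05 in any of the 3 comparisons. The lowest adjusted p was 0.729 for CCNY-WT against EGFP, 0.122 for CCNY-shRNA against EGFP and 0.293 for CCNY-shRNA against CCNY-WT, while 0.00982%, 0.746% and 0.216% of all tested genes passed in these comparisons. The 3 comparisons share libraries and are not independent. The fitted 95% intervals of all 30 genes lay within 1 log2 unit of no difference in both comparisons with EGFP, so doublings and losses of that size lay outside them, whereas intervals within 0.5 log2 units were reached for 22 of 30 genes in CCNY-WT and 19 of 30 in CCNY-shRNA. Smaller differences were not excluded by 2 libraries a group. Each interval is for a single gene, and values under 1 were set to 1 before the fit. For Wnt9a, at 1.43 and 0.737 FPKM in CCNY-shRNA, this made the fitted fall smaller. Its interval therefore does not bound the difference of the unfloored values.

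At an unadjusted p under 0.05, CCNY-WT differed from EGFP in 2 of the 30 genes (6.67%; Porcn and Wnt4), against a background of 6.83% of all genes tested. CCNY-shRNA differed from EGFP in 7 of 30 (23.3%), against 18.6% of all genes. Of these, 5 were lower (16.7% against 9.36%), namely Porcn, Wls, Wnt7b, Ctnnb1 and Gsk3b, and 2 were higher (6.67% against 9.2%), namely Gsk3a and Ror2. CCNY-shRNA differed from CCNY-WT in 4 of 30 (13.3%; Gsk3a, Gsk3b, Fzd1 and Ror2), against 12.2%. These counts depended on single libraries. Without EGFP replicate 1 or 2 the count of 7 became 3 or 2, the count of 2 became 1 without EGFP replicate 1 and 0 without EGFP replicate 2 or either CCNY-WT library, and the count of 4 became 1 without CCNY-WT replicate 1 and 2 without CCNY-shRNA replicate 2.

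The tested Wnt genes had a median log2 difference of -0.03 in CCNY-WT, beside 0.004 over all genes, with 20 lower and 10 higher. In CCNY-shRNA the median was -0.11, beside 0 over all genes, with 22 lower and 8 higher. In bulk RNA, fewer cells of a type and less RNA per cell cannot be told apart. Both CCNY-shRNA libraries lay below both EGFP libraries for 13 of 30 genes (43.3%, background 24.5%) and above them for 5 (16.7%, background 23.9%). In CCNY-WT these counts were 8 (26.7%, background 19.2%) and 4 (13.3%, background 20.3%). The size criteria of the study were a log2 difference of at least 0.3 for CCNY-WT and 0.33 for CCNY-shRNA. The paper also names a program, cuffdiff, for selecting genes, which was not rerun here. By size without a test, the criteria were met by Wnt4 alone in CCNY-WT (background 8.35%). In CCNY-shRNA they were met by Ror2 and Sfrp1 (background 13.1%). The distribution of these differences among all genes shows the 30 members inside the body of the histogram, displaced to the left of its centre in CCNY-shRNA.

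**Figure D1:**
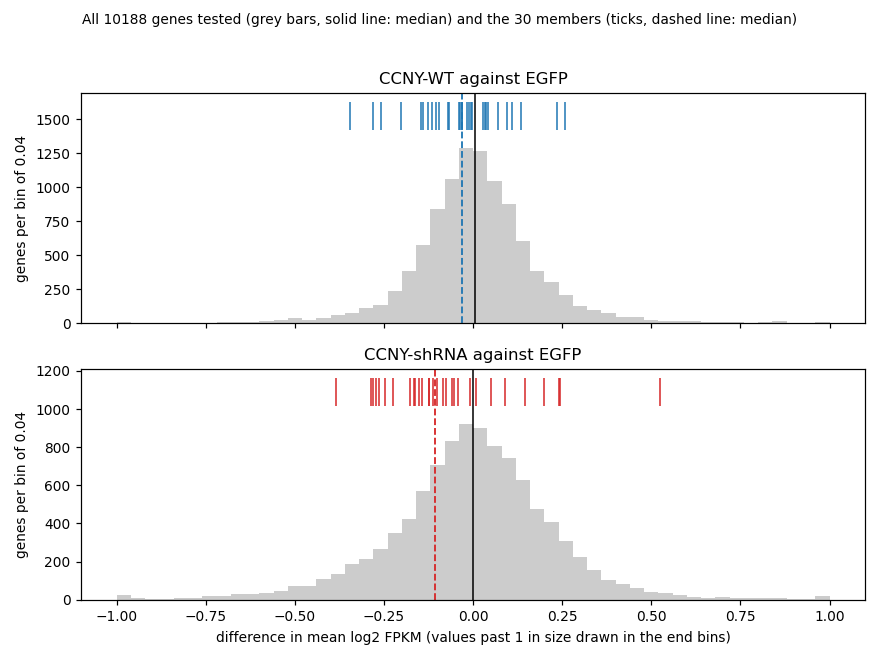
Number of genes (y axis, per bin of 0.04) by difference in mean log2 FPKM from EGFP (x axis) for CCNY-WT (top) and CCNY-shRNA (bottom). Grey bars are all 10188 tested genes with their median as a solid line, and coloured ticks are the 30 tested Wnt genes with their median as a dashed line, at -0.03 in CCNY-WT and -0.11 in CCNY-shRNA.

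**Figure D2:**
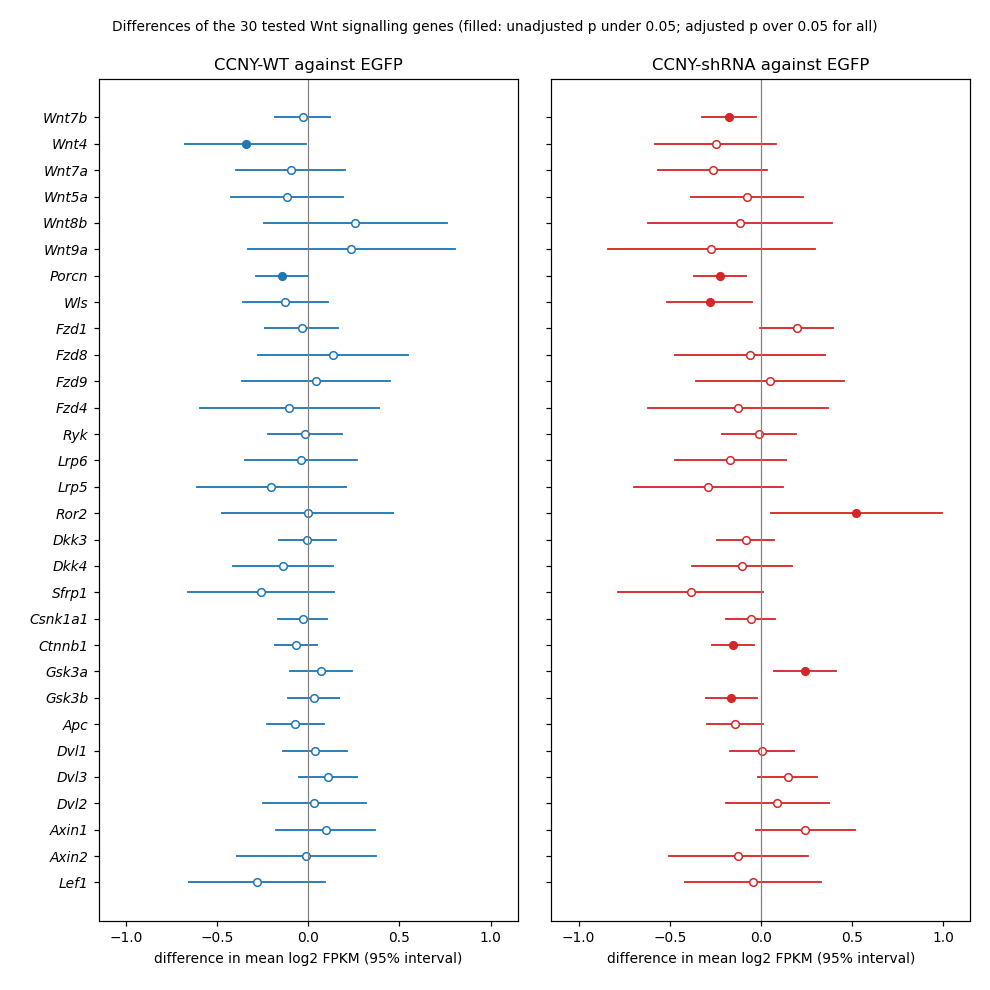
Difference in mean log2 FPKM from EGFP (x axis, points) with limma 95% intervals (lines) for the 30 tested Wnt genes (y axis), CCNY-WT on the left and CCNY-shRNA on the right, with 2 libraries a group. Filled points have an unadjusted p under 0.05, 2 on the left and 7 on the right, and none passed the adjusted threshold.

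In mean level over the 6 libraries the cytoplasmic components led, in the order Csnk1a1, Ctnnb1, Gsk3a, Gsk3b and Apc, followed by Wnt7b and Porcn. The ranges over libraries of neighbours in the order overlapped in 21 of 30 pairs. Separate ranges divided Csnk1a1 from Ctnnb1, Gsk3a from Gsk3b, Apc from Wnt7b, Porcn from Dvl1, Wnt4 from Ryk, Fzd1 from Dkk4, Axin1 from Lrp6, Axin2 from Lrp5 and Lrp5 from Wnt8b. Of the 24 genes not tested, Dkk2 and Wnt8a were listed at 0 in every library, 21 stayed under an FPKM of 1 with some signal, and Sfrp2 exceeded 1 only in CCNY-shRNA replicate 1, at 1.03. A listed 0 does not by itself show that a transcript was absent. Of the tested genes, 29 were over 1 in all libraries and Wnt9a fell under it in 1, so no gene entered the test through 1 group.

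**Figure D3:**
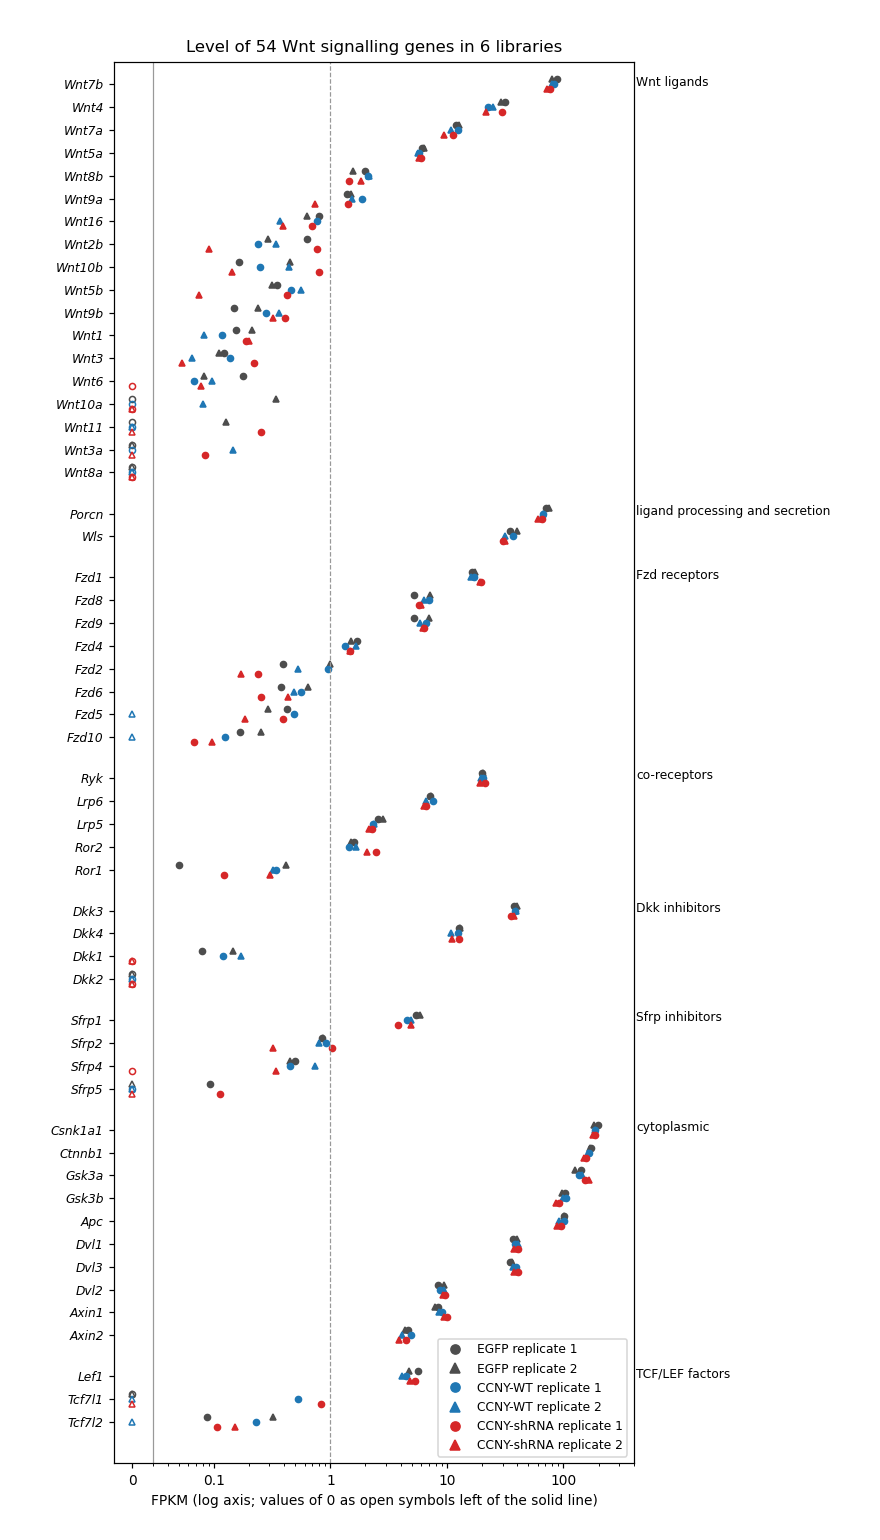
FPKM of the 54 Wnt genes in each of the 6 libraries (x axis, log scale, with values of 0 as open symbols at the left edge), grouped by role from ligands to TCF/LEF factors and ordered by mean level within a role. Colours mark the groups and circles and triangles replicates 1 and 2. The cytoplasmic components lie furthest to the right, most ligands lie under the dashed line at an FPKM of 1, and the colours of a gene mostly overlap.

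Among the 18 ligands, 6 were tested and 12 stayed under an FPKM of 1 in every library. Wnt7b, a ligand known for promoting dendrite growth in hippocampal neurons, made up 58.6 to 64.0% of the summed ligand FPKM in each library. It stood at 87.4 and 80.2 FPKM with EGFP, 83.6 and 80.2 with CCNY-WT and 76.1 and 72.2 with CCNY-shRNA. Both CCNY-shRNA libraries lay below the other 4. The log2 difference from EGFP was -0.18 ± 0.0642 (SE; 95% interval -0.32 to -0.03; 0.885-fold) in CCNY-shRNA, with a limma adjusted p of 0.201, and -0.03 (-0.18 to 0.12) in CCNY-WT.

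Wnt4, a ligand of both branches, gave 17.3 to 23.0% of the ligand sum. Its FPKM was 31.2 and 29.2 with EGFP, 22.6 and 25.0 with CCNY-WT, and 29.9 and 21.6 with CCNY-shRNA. The CCNY-WT libraries were both below the EGFP libraries, whereas the CCNY-shRNA libraries spanned nearly the whole range. The difference was -0.35 ± 0.143 in CCNY-WT (0.787-fold; limma adjusted p = 0.729) and -0.25 (-0.58 to 0.08) in CCNY-shRNA.

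Wnt7a, a synaptic organiser close in sequence to Wnt7b, stood at 12.02 and 12.73 FPKM with EGFP, 12.43 and 10.76 with CCNY-WT, and 11.17 and 9.50 with CCNY-shRNA. Its log2 difference in CCNY-shRNA was -0.26 (-0.56 to 0.04). Wnt7b stood 6.30 to 7.60 times above Wnt7a within each library, and this ratio overlapped between the 3 groups. Wnt5a, the best known ligand of the non-canonical branches, ran from 5.67 to 6.38 FPKM over the 6 libraries, Wnt8b from 1.46 to 2.13 and Wnt9a from 0.737 to 1.88. All 6 tested ligands had lower fitted values in CCNY-shRNA than in EGFP, from -0.27 for Wnt9a to -0.08 for Wnt5a, and only Wnt7b reached an unadjusted p under 0.05. In CCNY-WT 4 of the 6 were lower and 2, Wnt8b and Wnt9a, were higher.

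The other 12 ligands were Wnt1, Wnt2b, Wnt3, Wnt3a, Wnt5b, Wnt6, Wnt8a, Wnt9b, Wnt10a, Wnt10b, Wnt11 and Wnt16. Their FPKM values rose in steps of whole fragments (tolerance 0.02), as did those of all 21 low members with signal and of 95.4% of 3046 low genes in the table. The numbers given here are the smallest that fit, and the true ones can be larger. A gene with signal in 1 library always fits, and signal in few libraries makes a fit easy. The share of genes that fit is therefore a weak check of these numbers. Wnt3a, widely used as the prototype canonical ligand in experiments, corresponded to 0 fragments in both EGFP libraries, 0 and 2 with CCNY-WT and 1 and 0 with CCNY-shRNA. Wnt1 came to 2 and 3, 2 and 1, and 2 and 3 fragments in the same order, and Wnt3 to 2 and 2, 3 and 1, and 3 and 1. At these smallest numbers, 3 or fewer fragments a library, no difference between groups in these ligands was detectable at this depth. Wnt10a had 5 of its 6 fragments in EGFP replicate 2, and Wnt9b, with 4 to 10 fragments a library, was the best covered of the 12 by total.

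Porcn, the acyltransferase that attaches the lipid to Wnt ligands, and Wls, the carrier that takes them to the cell surface, were both well expressed. Porcn stood at 71.2 and 75.6 FPKM with EGFP, 66.5 and 66.1 with CCNY-WT, and 65.0 and 60.5 with CCNY-shRNA. All 4 libraries with altered CCNY lay below both EGFP libraries. The log2 difference was -0.23 ± 0.0618 in CCNY-shRNA (95% interval -0.37 to -0.08; 0.855-fold; limma adjusted p = 0.122), the lowest adjusted p of any Wnt gene. In CCNY-WT it was -0.15 ± 0.0618 (-0.29 to -0.002; limma adjusted p = 0.729). Porcn was lower than EGFP on average in both conditions, in which CCNY itself moved in opposite directions.

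Wls stood at 34.9 and 39.9 FPKM with EGFP, 37.2 and 31.5 with CCNY-WT, and 30.2 and 31.2 with CCNY-shRNA. The CCNY-shRNA libraries were below all others, and the CCNY-WT libraries overlapped those of EGFP. The difference was -0.28 ± 0.101 in CCNY-shRNA (0.823-fold; limma adjusted p = 0.195) and -0.13 (-0.36 to 0.11) in CCNY-WT.

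**Figure D4:**
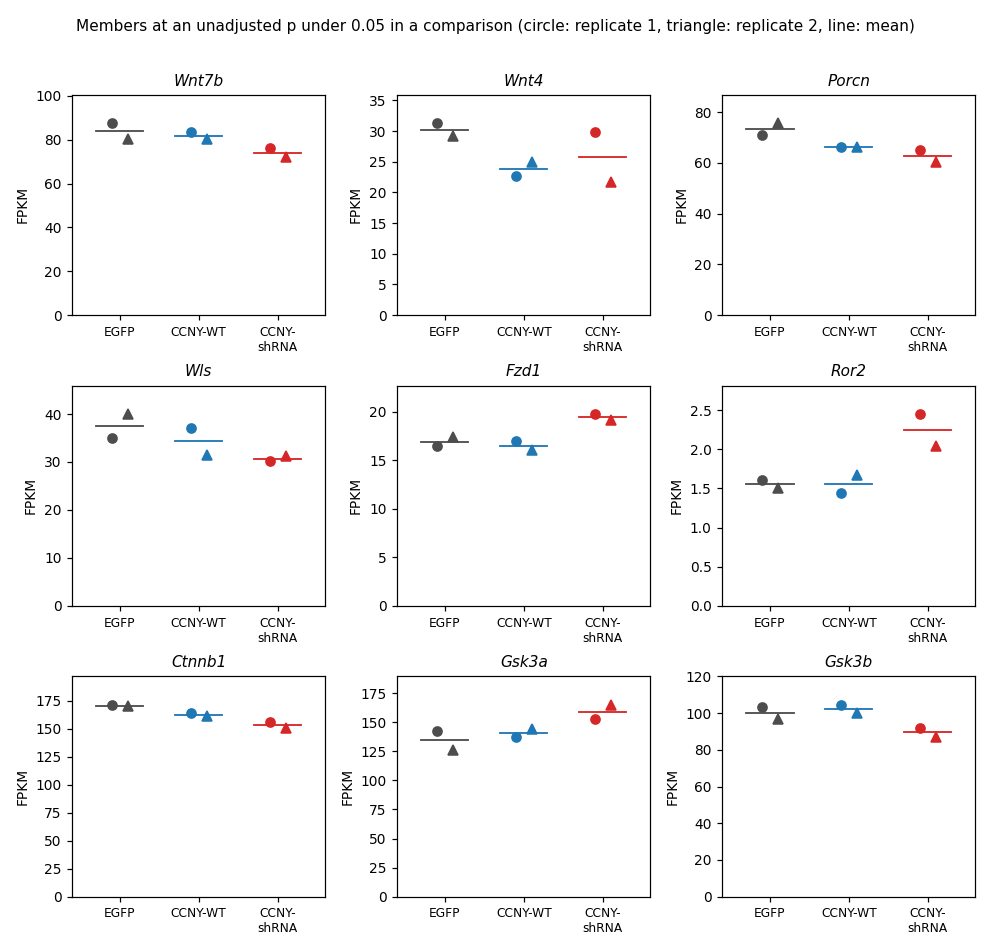
FPKM (y axis, from 0) of the 9 Wnt genes at an unadjusted p under 0.05 in at least 1 comparison, by group (x axis); circles are replicate 1, triangles replicate 2 and lines the mean of the 2 libraries. Porcn, Wls, Wnt7b and Ctnnb1 lie lowest in CCNY-shRNA, Ror2 and Gsk3a lie highest there, and Wnt4 separates EGFP from CCNY-WT only.

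Of 8 Frizzled receptors, 4 were tested. Fzd1 supplied 49.2 to 57.6% of the summed Fzd FPKM, with 16.5 and 17.3 with EGFP, 17.0 and 16.0 with CCNY-WT, and 19.7 and 19.1 with CCNY-shRNA. The CCNY-shRNA libraries were the highest of the 6. The difference was 0.20 (0.0868 SE; 95% interval -0.003 to 0.40) from EGFP and 0.24 ± 0.0868 from CCNY-WT (limma adjusted p = 0.344). In the RefSeq annotation of rat build GRCr8, Cdk14, which encodes a kinase partner of cyclin Y, is the gene next to Fzd1. Its FPKM was 45.0 and 39.5 with EGFP, 43.6 and 41.9 with CCNY-WT and 44.8 and 47.4 with CCNY-shRNA, with overlapping groups.

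Fzd8 stood at 5.20 and 7.17 FPKM with EGFP, 7.03 and 6.40 with CCNY-WT, and 5.77 and 5.96 with CCNY-shRNA. Fzd9 stood at 5.19 and 7.07, 6.59 and 5.90, and 6.35 and 6.21 in the same order. For both receptors EGFP replicate 1 gave the lowest value and EGFP replicate 2 the highest, so the control libraries enclosed the other groups. Fzd4 ran from 1.32 to 1.71 over the 6 libraries. Fzd2, Fzd5, Fzd6 and Fzd10 stayed under 1, and the best covered, Fzd6, came to 5 to 18 fragments a library.

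The co-receptors include the substrate of the cyclin Y kinase. Lrp6 stood at 7.22 and 7.30 FPKM with EGFP, 7.52 and 6.64 with CCNY-WT, and 6.61 and 6.32 with CCNY-shRNA. The 2 EGFP libraries were close together, the CCNY-WT libraries enclosed them, and the CCNY-shRNA libraries lay below all others. The log2 difference was -0.17 ± 0.132 in CCNY-shRNA (95% interval -0.47 to 0.14; limma adjusted p = 0.542) and -0.04 ± 0.132 in CCNY-WT (-0.35 to 0.27). RNA levels do not show the phosphorylation of the protein. Its close relative Lrp5 stood at 2.56 and 2.84 with EGFP, 2.31 and 2.37 with CCNY-WT, and 2.29 and 2.13 with CCNY-shRNA. Both altered groups lay below EGFP, with differences of -0.20 (-0.61 to 0.21) and -0.29 (-0.70 to 0.12). Lrp6 exceeded Lrp5 by 2.57 to 3.25 times within every library.

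Ror2, a receptor tyrosine kinase of the non-canonical branch that binds Wnt5a, had the largest fitted difference of the 30 genes in CCNY-shRNA. It stood at 1.60 and 1.51 FPKM with EGFP, 1.44 and 1.67 with CCNY-WT, and 2.45 and 2.05 with CCNY-shRNA. The 2 CCNY-shRNA libraries were the highest, and the other groups overlapped. The difference was 0.53 ± 0.203 from EGFP (95% interval 0.06 to 0.99; 1.44-fold; limma adjusted p = 0.219) and 0.53 ± 0.203 from CCNY-WT (limma adjusted p = 0.366). Over the alternative settings and with each library left out in turn, the difference from EGFP ran from 0.34 to 0.65. Ror1 stayed under 1, with 1 and 9 fragments with EGFP, 9 and 6 with CCNY-WT and 2 and 7 with CCNY-shRNA. Ryk, a pseudokinase receptor for Wnt ligands, was steady at 20.0 and 20.6 FPKM with EGFP, 20.3 and 19.7 with CCNY-WT, and 21.3 and 19.1 with CCNY-shRNA, with a difference of -0.01 (-0.21 to 0.19) in CCNY-shRNA.

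Among the 54 genes, the secreted inhibitors were represented mainly by Dkk3, a divergent member of the Dickkopf family, with 73.6 to 78.0% of the Dkk sum. Wif1, a secreted inhibitor among the further pathway genes, ran from 15.3 to 23.4 FPKM over the 6 libraries. Dkk3 stood at 37.7 and 40.0 FPKM with EGFP, 38.1 and 39.3 with CCNY-WT, and 35.6 and 37.7 with CCNY-shRNA. Dkk4, an inhibitor that acts on Lrp6, stood at 12.6 and 13.0, 12.4 and 10.9, and 12.7 and 11.2 in the same order. For Dkk3 the higher CCNY-shRNA value met the lower EGFP value, and for Dkk4 the CCNY-shRNA libraries overlapped those of EGFP, while both CCNY-WT libraries lay below them. The log2 differences in CCNY-shRNA were -0.08 (-0.24 to 0.07) for Dkk3 and -0.10 (-0.37 to 0.17) for Dkk4. In GRCr8 the neighbour of Dkk4 is Polb, which stood at 27.2 to 36.3 FPKM; fragments of a neighbouring transcript counted for Dkk4 were not tested. Dkk1, the Lrp6 antagonist induced by β-catenin, came to 1 and 2 fragments with EGFP, 2 and 2 with CCNY-WT, and 0 and 0 with CCNY-shRNA, too few for a comparison.

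The genes with an Sfrp symbol encode secreted Frizzled-related proteins, which bind Wnt ligands outside the cell. Of these genes, Sfrp1 was tested and gave 76.3 to 88.1% of their summed FPKM. It stood at 5.45 and 5.93 FPKM with EGFP, 4.55 and 4.96 with CCNY-WT, and 3.83 and 4.94 with CCNY-shRNA. Both altered groups lay below EGFP. The differences were -0.39 ± 0.173 in CCNY-shRNA (95% interval -0.79 to 0.01; limma adjusted p = 0.286) and -0.26 ± 0.173 in CCNY-WT (-0.66 to 0.14). Sfrp2 stood at 0.325 to 1.03 FPKM. By the smallest fitting numbers, Sfrp4 came to up to 7 fragments in a library and Sfrp5 to up to 1. Frzb, a gene of the same family under another symbol, was followed with the further pathway genes. Frzb stood at 4.07 and 4.87 FPKM with EGFP, 5.59 and 5.83 with CCNY-WT, and 5.37 and 4.09 with CCNY-shRNA. For Frzb both CCNY-WT libraries lay above both EGFP libraries, and the CCNY-shRNA libraries overlapped them.

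All 10 cytoplasmic components were tested. Ctnnb1, which encodes β-catenin, stood at 171 and 170.0 FPKM with EGFP, 164 and 161 with CCNY-WT, and 156 and 151 with CCNY-shRNA. The 3 groups did not overlap. The log2 difference was -0.15 ± 0.0504 in CCNY-shRNA (95% interval -0.27 to -0.04; 0.900-fold; limma adjusted p = 0.171) and -0.07 ± 0.0504 in CCNY-WT (-0.19 to 0.05).

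The 2 glycogen synthase kinases, which phosphorylate β-catenin for destruction, had fitted differences of opposite sign in CCNY-shRNA. Gsk3a stood at 143 and 126 FPKM with EGFP, 137 and 144 with CCNY-WT, and 153 and 165 with CCNY-shRNA, with a difference from EGFP of 0.24 ± 0.0739 (1.18-fold; limma adjusted p = 0.150). Gsk3b stood at 104 and 96.9, 104 and 99.9, and 92.0 and 87.0, with a difference of -0.16 ± 0.0605 (0.893-fold; limma adjusted p = 0.207). For each kinase the CCNY-shRNA libraries lay outside the range of the other 4. The ratio of Gsk3a to Gsk3b within a library, which no scaling between libraries can alter, was 1.38 and 1.30 with EGFP, 1.32 and 1.44 with CCNY-WT, and 1.66 and 1.89 with CCNY-shRNA. The ratio was chosen after the values were seen and has no test. In GRCr8 the annotation of Gsk3a overlaps Zfp526 and that of Gsk3b overlaps Nr1i2, and the setting for strand in the counting was not given in the sources used here.

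Axin1, the scaffold of the destruction complex, stood at 8.45 and 7.94 FPKM with EGFP, 9.01 and 8.50 with CCNY-WT, and 9.95 and 9.46 with CCNY-shRNA, with a difference in CCNY-shRNA of 0.24 (-0.03 to 0.52). Apc, the second scaffold, stood at 101 and 102, 101 and 91.6, and 95.1 and 88.5, with a difference of -0.14 (-0.30 to 0.01). For both genes the CCNY-shRNA libraries lay outside the EGFP range, on opposite sides. Csnk1a1, the casein kinase that primes β-catenin, was the most abundant Wnt gene, with 198 and 183 FPKM with EGFP, 186 and 187 with CCNY-WT, and 186 and 181 with CCNY-shRNA.

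The Dishevelled proteins carry the signal from Frizzled to both branches. Dvl1 stood at 37.2 and 40.2 FPKM with EGFP, 38.1 and 41.1 with CCNY-WT, and 40.4 and 37.4 with CCNY-shRNA. Dvl2 stood at 8.37 and 9.38, 8.70 and 9.45, and 9.60 and 9.27, and Dvl3 at 34.8 and 35.9, 39.3 and 36.9, and 40.5 and 37.8. The groups overlapped for Dvl1 and Dvl2, and for Dvl3 all 4 libraries with altered CCNY lay above EGFP. The Dvl3 differences were 0.11 (-0.05 to 0.27) in CCNY-WT and 0.15 (-0.01 to 0.31) in CCNY-shRNA.

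Of the TCF/LEF factors that bind DNA with β-catenin, Lef1 was tested. Lef1 stood at 5.68 and 4.74 FPKM with EGFP, 4.42 and 4.12 with CCNY-WT, and 5.31 and 4.78 with CCNY-shRNA. The CCNY-WT libraries lay below the EGFP libraries, with a difference of -0.28 (-0.66 to 0.09), and the CCNY-shRNA libraries lay within the EGFP range, with a difference of -0.04 (-0.42 to 0.33). Tcf7l2 came to 2 and 8 fragments with EGFP, 7 and 0 with CCNY-WT and 2 and 4 with CCNY-shRNA, all under an FPKM of 1. Tcf7l1 came to 0 and 0, 1 and 0, and 1 and 0 fragments. At these smallest fitting numbers, a fragment of Tcf7l1 was worth 0.689 FPKM at the depth of EGFP replicate 1, against 0.0436 for Tcf7l2. Larger numbers would fit the values of Tcf7l1 as well, and the length of its sequence was not looked up. The low value of Tcf7l1 therefore says little about the gene.

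Axin2, a negative regulator and the most general transcriptional target of β-catenin, stood at 4.67 and 4.38 FPKM with EGFP, 4.91 and 4.11 with CCNY-WT, and 4.42 and 3.91 with CCNY-shRNA. The 3 groups overlapped. The differences were -0.01 ± 0.165 in CCNY-WT (95% interval -0.39 to 0.37) and -0.12 ± 0.165 in CCNY-shRNA (-0.51 to 0.26; limma adjusted p = 0.743). The plot of cyclin Y, its kinases and the target genes sets the separated levels of Ccny beside the overlapping levels of Axin2. The other targets in the plot were not all level. Myc lay above both EGFP libraries in both altered groups, with log2 differences of 0.347 in CCNY-WT and 0.354 in CCNY-shRNA. Ccnd1 lay below both EGFP libraries in CCNY-shRNA, with a difference of -0.274, and overlapped them in CCNY-WT. None of these differences passed the adjusted threshold by limma.

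**Figure D5:**
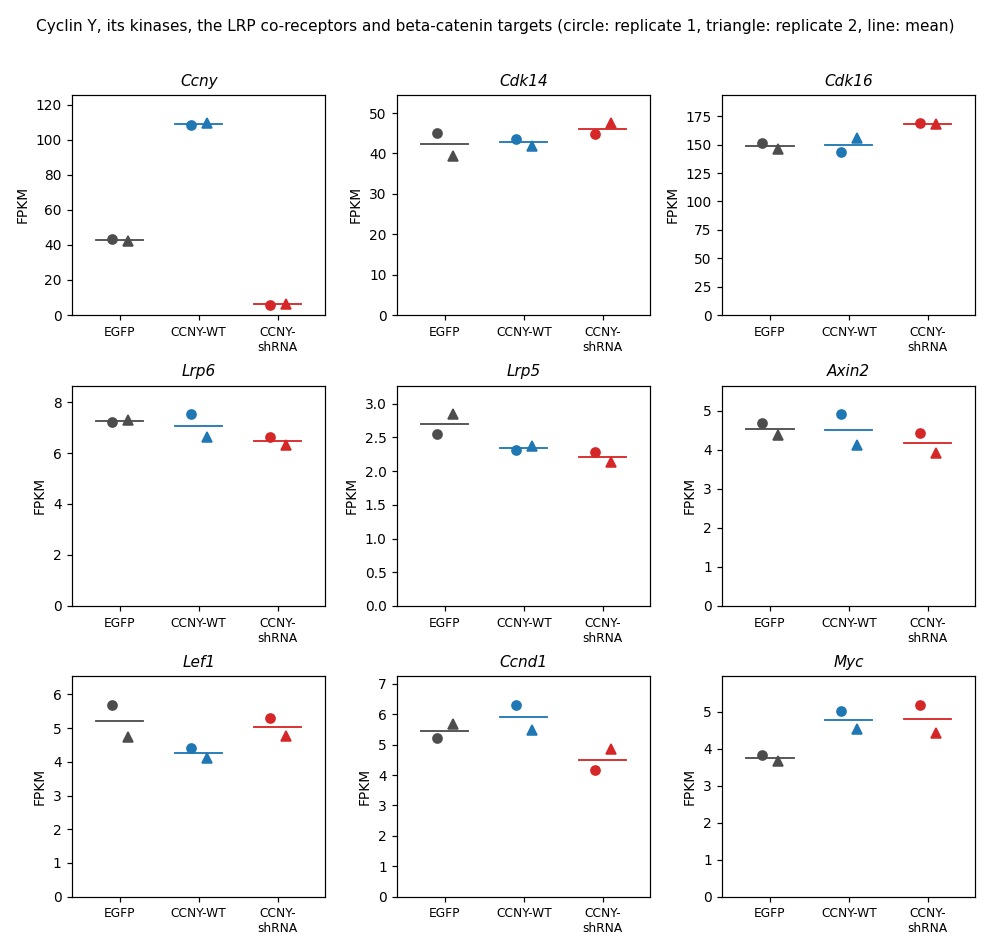
FPKM (y axis, from 0) by group (x axis) of Ccny, the kinase genes Cdk14 and Cdk16, the co-receptors Lrp6 and Lrp5, and the β-catenin targets Axin2, Lef1, Ccnd1 and Myc; circles are replicate 1, triangles replicate 2 and lines the mean of the 2 libraries. Ccny ran from 5.98 in CCNY-shRNA to 109 in CCNY-WT, whereas Axin2 stayed between 3.91 and 4.91. Myc lay above EGFP in both altered groups, Ccnd1 lay below EGFP in CCNY-shRNA and Lef1 lay below EGFP in CCNY-WT.

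The regions upstream of the start sites of Axin2 and Dkk1 are shown because these members are the feedback targets through which β-catenin activity is commonly read. The 250 bases before each annotated start were taken from RefSeq (GRCr8), a later build than the rn4 used for the FPKM values. Capitals mark TCF/LEF motifs, searched on both strands as CTTTG followed by AA, AT, TA or TT, and none overlap. Axin2 lies at chr10:94398535-94398784 on the plus strand and Dkk1 at chr1:237798651-237798900 on the minus strand, each printed 5′ to 3′ in the direction of the gene.
Axin2: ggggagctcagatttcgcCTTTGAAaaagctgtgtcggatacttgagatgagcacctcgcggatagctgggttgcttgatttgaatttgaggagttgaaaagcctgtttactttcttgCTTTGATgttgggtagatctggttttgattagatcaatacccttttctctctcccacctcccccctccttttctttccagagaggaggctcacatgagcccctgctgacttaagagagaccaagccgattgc
Dkk1: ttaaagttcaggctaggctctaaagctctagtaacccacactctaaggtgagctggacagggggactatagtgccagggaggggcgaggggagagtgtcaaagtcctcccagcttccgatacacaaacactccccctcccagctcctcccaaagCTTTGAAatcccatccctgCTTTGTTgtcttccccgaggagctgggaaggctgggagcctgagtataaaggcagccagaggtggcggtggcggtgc
Such windows were found for 41 of the 54 genes, and 5 of them (12.2%) held a motif, namely Axin2, Dkk1, Gsk3a, Sfrp5 and Wnt8a, against 15.9% of 27457 genes with a window. Axin2 and Dkk1 were the ones with 2 motifs, which 1.83% of all genes had. In Axin2 the motifs began 232 and 132 bases before the start and in Dkk1 96 and 77 bases before it. A match is a description of letters and shows no binding.

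The rest of the pathway was followed with a fixed list of 109 further genes, of which 92 were analysed, 79 were tested, and 17 were not analysed here. Besides Ccny itself, Prkca passed the adjusted threshold. Prkca, the calcium-responsive protein kinase C alpha of the Wnt/calcium branch, stood at 90.0 and 90.0 FPKM with EGFP, 82.9 and 87.0 with CCNY-WT, and 62.5 and 59.9 with CCNY-shRNA. It fell in CCNY-shRNA by 0.56 log2 units from EGFP (0.0556 SE; limma adjusted p = 0.0112) and by 0.47 from CCNY-WT (limma adjusted p = 0.0252). Under 3 of 13 alternatives for the former and 6 of 13 for the latter these calls were lost, namely with no filter on low values, without either EGFP library and, for the latter, also without either CCNY-WT library or CCNY-shRNA replicate 2, with adjusted p up to 0.142 and 0.269 over the alternatives.

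At an unadjusted p under 0.05, 16 of the 79 (20.3%, background 18.6%) differed between CCNY-shRNA and EGFP and 3 (3.8%, background 6.83%; Ccny, Daam1 and Tle4) between CCNY-WT and EGFP. Daam1, a formin of the polarity branch, differed by -0.20 and the corepressor gene Tle4 by -0.17 in CCNY-WT. Against the same 18.6% of all genes, 5 of the 12 extracellular and membrane genes tested (41.7%) differed in CCNY-shRNA. Lgr4, a receptor for R-spondins that strengthens Wnt signalling, stood at 21.7 and 22.0 FPKM with EGFP, 21.5 and 22.3 with CCNY-WT, and 15.4 and 16.6 with CCNY-shRNA, with a difference of -0.45 ± 0.0829 (limma adjusted p = 0.0600). Its ligand gene Rspo2 differed by -0.41, Lrp4 by -0.66, Gpc4 by -0.35 and Kremen1, a Dickkopf receptor, by 0.41, all with adjusted p over 0.05 by limma. Lrp4 was weakly expressed, at 1.63 and 1.61 FPKM with EGFP and 1.02 and 1.03 with CCNY-shRNA. Among 20 cytoplasmic genes 4 differed (20%), with Tnks2, a tankyrase that marks Axin for destruction, at -0.23 (limma adjusted p = 0.0853), Nkd2 at -0.62, Rnf146 at 0.15 and Dact3 at 0.23. Of 14 nuclear genes 2 differed (14.3%; Ctbp1 at 0.21 and Pygo2 at 0.23), and of 19 genes of the polarity and calcium branches 2 differed (10.5%; Prkca and Camk2a, the latter at -0.18).

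Of 11 tested β-catenin targets outside the 54 genes, 0 passed the adjusted threshold in any comparison by limma. At an unadjusted p under 0.05 there were 0 in CCNY-WT against EGFP (background 6.83%). There was 1 in CCNY-shRNA against EGFP, Cd44 at -0.45 (9.09%, background 18.6%). In CCNY-shRNA against CCNY-WT there were 2 of 11, Ccnd1 at -0.39 and Fgf9 at -0.31 (background 12.2%). The median difference of the 11 targets from EGFP was -0.18 in CCNY-shRNA, beside 0 over all genes, with 8 lower and 3 higher. In CCNY-WT it was -0.02, beside 0.004, with 6 lower and 5 higher. Of 5 tested genes of the cyclin Y complex, Cdk16, the second kinase partner, stood at 151 and 146 FPKM with EGFP, 143 and 156 with CCNY-WT, and 169 and 168 with CCNY-shRNA, with a difference from EGFP of 0.18 (limma adjusted p = 0.168). CCNY-shRNA differed from CCNY-WT at an unadjusted p under 0.05 in 15 of the 79 genes (19%, background 12.2%), which added Csnk1d, Ctnnbip1 and Wif1 (0.15, 0.20 and 0.43) to genes named above.

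Several Wnt genes are expressed by glia as well as neurons. All 12 neuron markers were expressed, and their summed FPKM was 5181 to 5255 in EGFP, 5111 to 5171 in CCNY-WT and 5227 to 5232 in CCNY-shRNA. The sum is carried by the most abundant genes. Among the 12, Gad2, a GABA-synthesising enzyme of inhibitory neurons, fell in CCNY-shRNA, by 0.41 log2 units from EGFP (limma adjusted p = 0.0226) and by 0.46 from CCNY-WT (limma adjusted p = 0.0165). Gad1, the other GABA-synthesising enzyme of the list, differed in CCNY-shRNA by -0.03 from EGFP (limma adjusted p = 0.813). From CCNY-WT it differed by -0.12 (limma adjusted p = 0.411). Neurod6 and Tubb3 differed from EGFP by -0.20 and 0.16 without passing the adjusted threshold. All 9 astrocyte markers were expressed, with none at 0, and summed to 540 to 580, 567 to 573 and 472 to 545. The lowest astrocyte sum was that of CCNY-shRNA replicate 1, and the markers' median difference in CCNY-shRNA was -0.20, beside -0.11 for the Wnt genes. Of the 9 markers, 7 were lower and 2 higher in CCNY-shRNA than in EGFP. Slc1a2, Slc1a3 and Fgfr3 differed by -0.32, -0.24 and -0.47 without passing the adjusted threshold. For each of these, both CCNY-shRNA libraries lay below both EGFP libraries. Oligodendrocyte lineage markers exceeded 1 for 5 of 8 genes and summed to 44.2 to 44.5, 41.9 to 47.6 and 37.2 to 40.3, with Sox10 at 0. The vascular and meningeal markers exceeded 1 for 2 of 7 genes, Lum and Dcn, and summed to 64.2 to 72.3, 74.4 to 75.1 and 63.3 to 66.6, with the endothelial marker Cldn5 at 0. Microglial markers exceeded 1 for 1 of 8 genes and summed to at most 1.47, with Aif1 and Cx3cr1 at 0, and markers of dividing cells exceeded 1 for 3 of 5 and summed to at most 4.25. Rhoa, a broadly expressed small GTPase gene among the further pathway genes, was also listed at 0 in every library. A listed 0 therefore does not by itself show that a gene or cell type was absent. The part of these markers in the differences of the Wnt genes was not tested.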

How the data were processed

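RNA-seq was measured in 6 libraries, and the labels give 3 groups (EGFP, CCNY-WT, CCNY-shRNA) of 2. The authors mapped paired-end reads to rn4 with TopHat and computed FPKM with Cufflinks, and the deposited table holds 1 FPKM value per gene and library. The submitters' processing notes name TopHat2 2.0, Bowtie2 2.1.0, SAMtools 0.1.19, Cufflinks 2.2.1 and R 3.1.0. The annotation, the strand setting and any scaling between libraries are not given in the sources used here. The kit is described as stranded in the labels and without that word in the methods.

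Values under 1 were set to 1 before the log2 was taken, so differences of genes near 1 are understated. Genes that reached an FPKM of 1 in 2 libraries were tested with limma 3.58.1 in R 4.3.3 (lmFit and contrasts.fit, then eBayes with trend, all 6 libraries, two-sided), with Benjamini-Hochberg adjustment over 10188 genes and a threshold of 0.05. The model and the depth estimate were tested on simulated data. The changes simulated for the model were larger than any fitted difference of the tested Wnt genes and left out weakly expressed genes. That simulation therefore does not cover differences of the size seen here. With 2 libraries against 2 an exact permutation test cannot go below 0.333, so none was run. The table holds no read counts, and fragment numbers were read from FPKM steps, giving counting precision only. Sequences came from RefSeq tables of GRCr8, in which all 54 symbols matched. Python 3.11.15, pandas 2.3.3, numpy 2.4.6 and matplotlib 3.10.9 were used.

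The members, the further pathway genes and the markers were chosen with earlier results of these data known. Library values are given for genes at an unadjusted p under 0.05, for the backbone of the pathway from receptors to TCF/LEF factors, and for the 3 highest members of the Wnt, Fzd, Dkk and Sfrp families, and other members by range, count or name. Further pathway genes are named at an unadjusted p under 0.05 or as parts of the cyclin Y complex, and Polb, Zfp526, Nr1i2, Myc, Frzb, Rhoa and marker genes were named outside this rule. Alternatives covered the offset, the filter on low values, scaling, a replicate block and leaving out each library.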

Additional observations from a re-analysis of the deposited data

How the results depend on the processing

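No Wnt gene passed the adjusted threshold in any comparison under any of 13 alternatives, where the lowest adjusted p by limma was 0.0680, without CCNY-shRNA replicate 1. The 13 named differences kept their sign under all 13 alternatives, 169 values with 0 reversed. In CCNY-WT against EGFP, the count of 2 Wnt genes with an unadjusted p under 0.05 became 1 with offsets of 1 or 0.1, with no filter, with upper-quartile scaling, with quantile normalization and with a replicate block, and ran from 0 to 2 when 1 library was left out. In CCNY-shRNA against EGFP the count of 7 ran from 2 to 8 when 1 library was left out, and in CCNY-shRNA against CCNY-WT the count of 4 ran from 1 to 4. Of the further pathway genes, the count of 2 past the adjusted threshold in each comparison of CCNY-shRNA became 1 with no filter, where more genes are tested, and ran from 1 to 2 when 1 library was left out. The difference in Ccny stayed between 1.33 and 1.36 in CCNY-WT and between -2.84 and -2.62 in CCNY-shRNA, against EGFP.

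Libraries share replicate numbers, and the deviations of same-numbered libraries correlated at 0.0377 to 0.0538. This was under the 0.1 set for pairing, so the main fit used no pairs. A low correlation over genes cannot show whether same-numbered libraries shared a culture or preparation, and the labels do not say. With a replicate block the count was 8 in CCNY-shRNA against EGFP and 4 in CCNY-shRNA against CCNY-WT, and no Wnt gene passed the adjusted threshold. Depth limits the 21 low genes, whose smallest fitting numbers went up to 18 fragments in a library, and 2 libraries a group limit the others. A fit that leaves out a library assumes that the lone library of its group varies like the other groups.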
